A study of Homo sapiens with 16 samples.

Results

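The response to PD-0332991 of CEM and Jurkat, where the tumour suppressor gene CDKN2A was near background, was set against that of CUTL1 and DND41, where it was high. These are 4 established human lines of T-cell acute lymphoblastic leukaemia (T-ALL), and each was kept for 15 h with 1 uM PD-0332991 or with DMSO, the vehicle, on 2 arrays per line and treatment (16 arrays in 8 groups: CEM, Jurkat, CUTL1 and DND41, each with PD-0332991 and with DMSO). For each gene the difference between pairs was the mean PD-0332991 minus DMSO change of CEM and Jurkat, minus the mean change of CUTL1 and DND41, on the log2 scale. A gene was taken as a member where limma called this difference at an adjusted p under 0.05 over all 13483 genes tested and where both the CEM and the Jurkat change lay above, or both below, the CUTL1 and the DND41 change. This left 1096 members (8.13% of the genes tested), 806 with a higher change in CEM and Jurkat (5.98%) and 290 with a lower one (2.15%). Another 150 genes were called without keeping that order, so that 1246 genes (9.24%) were called in all, 901 higher (6.68%) and 345 lower (2.56%). The order alone, called or not, was kept by 5966 genes (44.2%), above in 24.6% and below in 19.6%. The members were thus chosen by the difference between pairs and the 4 line changes, and these values are given below as a description, with no test.

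PD-0332991, or palbociclib, blocks the cyclin-dependent kinases CDK4 and CDK6, which, bound to a D-type cyclin, phosphorylate RB1, the retinoblastoma protein, and so release E2F factors, the activators of S-phase genes. CDKN2A encodes p16INK4a, a natural inhibitor of the same kinases, and its locus on 9p21 is often deleted in T-ALL together with its neighbour MTAP, an enzyme of methionine salvage. Beside the cell cycle, T-ALL cells depend on NOTCH1 and MYC, on signals through RAS and the kinase ERK, whose own targets include the feedback phosphatase DUSP6 and the ETS factor ETV5, and on ATF4, which raises amino acid and transfer RNA synthetase genes when translation is under stress.

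The lines were paired by their CDKN2A level on these same arrays, so its values describe the choice. CDKN2A read 4.80 and 4.87 on the log2 intensity scale in CEM with PD-0332991, against 4.91 and 4.71 with DMSO, and 5.13 and 4.97 in Jurkat with PD-0332991, against 5.42 and 4.91 with DMSO. In CUTL1 it read 10.00 and 10.14 with PD-0332991, against 9.89 and 9.79 with DMSO, and in DND41 it read 10.44 and 10.44, against 10.73 and 10.73. The first 2 lines thus lay around 4.88, the median of all values, which was used here as the level below which a gene is called dim, and far below CUTL1 and DND41 on every array. MTAP, the neighbour, ran from 3.40 to 4.46 on the 8 arrays of CEM and Jurkat and from 7.54 to 8.02 on those of CUTL1 and DND41. KLHL9, a ubiquitin ligase adaptor gene of the same region named after its values were seen, was low in Jurkat alone, at 3.53 to 3.91, against 9.25 or more in the other lines, and CDKN2B, the neighbouring inhibitor gene, was dim in all 4. The difference between pairs was -0.02 for both CDKN2A and MTAP, and neither is a member.

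CDKN2A is not the only gene that divides the lines in this way. In DMSO 24 genes were at least 4-fold higher in both CUTL1 and DND41 than in both CEM and Jurkat, and 30 were at least 4-fold higher in both CEM and Jurkat. The gap for CDKN2A was 4.67 on the log2 scale, and 4 genes, itself included, had a gap at least as large. Besides CDKN2A they were, as named after their values were seen, the amyloid precursor gene APP, the imprinted gene MEST and the non-coding LINC00674. Each pair holds 2 lines, so the CDKN2A level and every other property that divides the lines in the same way cannot be told apart. With lines as the units the smallest exact permutation p that 2 lines against 2 allow is 0.333 (two-sided), and with each line's change taken as 1 replicate limma called 0 genes (1359 at an unadjusted p under 0.05). All p-values below measure the spread between the arrays of a group, since the labels do not say that these came from separate cultures.

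One quality measure moved with the contrast. The 18S ribosomal RNA probe sets read 13.21 and 13.08 in CEM with PD-0332991, against 13.25 and 12.56 with DMSO, and 13.56 and 13.30 in Jurkat with PD-0332991, against 13.48 and 13.29 with DMSO. They read 12.80 and 12.67 in CUTL1 with PD-0332991, against 13.28 and 13.17 with DMSO, and 12.45 and 12.75 in DND41 with PD-0332991, against 13.21 and 13.26 with DMSO. The treatments overlapped in CEM and Jurkat and did not in CUTL1 and DND41, which gives a difference between pairs of 0.71. With the 18S level of each array as a covariate 10 genes were called, 8 of them members: AFF3, ASAP2, BEX5, DOCK10, ETV5, HES4, LRIG1 and TANC1. In that fit all 806 higher and all 290 lower members kept the sign of their difference, and 1005 of the 1096 kept the order. The median difference was 0.50 in place of 0.55 for the higher and -0.40 in place of -0.41 for the lower members. The median standard error was 0.173 in place of 0.1125. The GAPDH ratio of 5' to 3' signal and the hybridisation spikes differed between pairs by 0.02 and 0.07, and the actin ratio by -0.29. Replicate arrays agreed across genes at r of 0.9935 to 0.9979, with DND41 with PD-0332991 the farthest apart (median absolute difference 0.142). All 11 measured T-lineage markers stood at or above 4.88 in every group, and 0 of them were called. Of the markers of other cells that were bright enough to test, 1 of 5 for B cells (BLK, higher) and 1 of 4 for epithelium (KRT8, lower) were called, and none of the myeloid (1), cytotoxic (6), erythroid (5) or stromal (5) ones.

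The higher members fell into 3 classes by the sign of the 4 changes. In 231 both CEM and Jurkat had a positive change and both CUTL1 and DND41 a negative one. A further 245 had the same sign in all 4 lines, of which 112 had a larger increase in CEM and Jurkat and 133 a larger decrease in CUTL1 and DND41, and the other 330 had mixed signs. Their median change was 0.30 in CEM and 0.31 in Jurkat, against -0.08 in CUTL1 and -0.33 in DND41. Over all genes tested the medians were 0.01, 0.05, 0.05 and 0.01 for the same lines. The difference between pairs ran from 0.22 to 1.94, with a median of 0.55, and reached 1 in 49 genes.

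The lower members were fewer and their differences smaller. In 116 the CEM and Jurkat changes were both negative and the CUTL1 and DND41 changes both positive, 62 had the same sign in all lines (41 with the larger decrease in CEM and Jurkat and 21 with the larger increase in CUTL1 and DND41), and 112 were mixed. Median changes were -0.25 in CEM and -0.20 in Jurkat, against 0.15 in CUTL1 and 0.22 in DND41. The median difference was -0.41, the largest -1.31, and 3 genes reached -1. The share of members on the higher side was 73.5%. It depended on the scaling, at 86.7% (1037 higher, 159 lower) when every array was set to 1 median, 56% (568 and 447) after quantile normalization and 62.9% (678 and 400) with cyclic loess. A gap of at least 0.25 between the nearer lines of the pairs was seen in 471 higher and 108 lower members, and a gap under 0.1 in 69 and 47. At least 1 group was dim for 138 higher and 54 lower members.

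**Figure D1:**
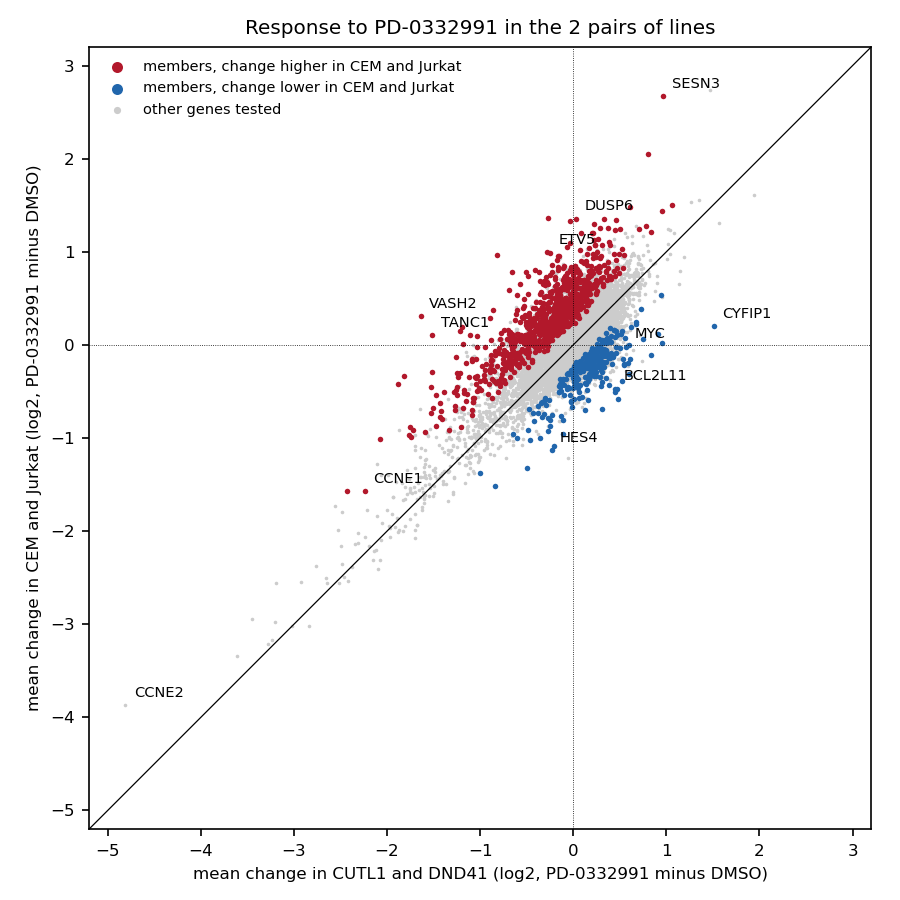
Mean log2 change (PD-0332991 minus DMSO) in CEM and Jurkat on the vertical axis and in CUTL1 and DND41 on the horizontal axis, for the 13483 genes tested. The 806 higher members (red) lie above the line of equal change and the 290 lower members (blue) below it, and CCNE2, which was called but did not keep the order, lies at the lower left with the genes that decreased in both pairs.

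Close to the threshold, the members just inside it were ZDHHC23, with a difference of 0.26, ZNF256 with 0.41 and SLC2A5, a fructose transporter gene, with -0.51. Just outside it, with the same order kept, were UBLCP1 with 1.08, RPAP3 with 0.56 and CABCOCO1 with 0.77. The larger differences of the genes outside went with larger standard errors (0.31, 0.16 and 0.22, against 0.07, 0.12 and 0.15 for those inside). Of 72 members named by rule, 40 were called in each of 16 fits that left out 1 array, and 32 were lost in at least 1. The genes described first below are among the 40 unless a count of fits is given.

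Genes of ERK pathway output were called on the higher side, 6 of 23. DUSP6, the phosphatase that switches ERK off, read 12.03 and 11.65 in CEM with PD-0332991, against 10.87 and 10.95 with DMSO, and 8.26 and 8.27 in Jurkat with PD-0332991, against 6.31 and 6.66 with DMSO. In CUTL1 it read 11.49 and 11.52 with PD-0332991, against 11.15 and 11.19 with DMSO, and in DND41 it read 12.48 and 12.98, against 13.07 and 12.94. The treated arrays lay above the DMSO arrays in CEM, Jurkat and CUTL1 and overlapped them in DND41. The changes were 0.93 in CEM, 1.78 in Jurkat, 0.34 in CUTL1 and -0.28 in DND41, a difference between pairs of 1.32 (SE 0.16), and all 3 bright probe sets of the gene gave a positive difference, of 0.53 to 1.32. The average effect is orthogonal to the difference that chose the members, but its test shares the residual variance. DUSP6 rose on average over the lines by 0.69 (SE 0.08, limma adjusted p = 2.67e-05, 8 arrays per treatment). Its level over both treatments was lower in CEM and Jurkat than in CUTL1 and DND41 (limma difference -2.73, adjusted p = 6.12e-11), mainly through Jurkat.

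ETV5, an ETS factor induced by ERK, had opposite signs in the pairs. It read 10.37 and 10.44 in CEM with PD-0332991, against 9.83 and 9.93 with DMSO, and 7.07 and 6.97 in Jurkat with PD-0332991, against 5.44 and 5.68 with DMSO. In CUTL1 it read 8.64 and 8.71 with PD-0332991, against 9.11 and 9.02 with DMSO, and in DND41 it read 7.78 and 7.69, against 7.84 and 7.86. In every line the treatments did not overlap, with the treated arrays above in CEM and Jurkat and below in CUTL1 and DND41, in DND41 by little. The difference was 1.24 (SE 0.09), all 4 bright probe sets had its sign, and the average effect was 0.37 (limma adjusted p = 2.54e-05). KLF10, a zinc-finger repressor, had changes of 0.05 in CEM, with overlapping arrays, and 0.35 in Jurkat, and read 7.24 and 7.29 in CUTL1 with PD-0332991, against 8.70 and 8.73 with DMSO, and 6.95 and 7.19 in DND41 with PD-0332991, against 8.07 and 7.94 with DMSO, a difference between pairs of 1.39 (SE 0.17). Its average effect was a fall of 0.50 (limma average effect -0.50, adjusted p = 0.000449).

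Of 23 ERK output genes tested, 6 (26.1%, beside 9.24% of all genes) were called, all higher, and 17 were not. The other 3 were named after their values were seen. DUSP10, a phosphatase of the stress kinases p38 and JNK, and MAFF, a small MAF factor, are members, while EGR1, an immediate early factor, did not keep the order: it read 7.22 and 7.38 in Jurkat with PD-0332991, against 5.76 and 5.90 with DMSO, and 8.93 and 8.82 in DND41 with PD-0332991, against 9.89 and 9.87 with DMSO, with overlapping arrays in CEM and higher treated arrays in CUTL1. The median difference of the 23 was 0.11, beside 0.02 for all genes tested. With 1 line left out the count of higher calls was 5 without CEM, 3 without Jurkat, 7 without CUTL1 and 3 without DND41, the last with 1 lower. It was 4 with quantile normalization and 5 with cyclic loess, each with 1 lower, and 1 with the 18S covariate. Among 15 genes of the RAS to ERK relay 4 were called (26.7%, beside 9.24% of all genes), all higher. They were RASGRP1, which activates RAS in T cells (difference 0.41, called in 5 of 16 fits without 1 array), RASAL3, which inactivates it (0.43, 9 of 16), the MEK gene MAP2K1 (0.23, 4 of 16) and, named after its values were seen, the kinase gene RPS6KA1. That count was 1 without CEM, 0 without Jurkat, 4 without CUTL1 and 1 without DND41, and it was 0 with quantile normalization, cyclic loess or the 18S covariate and 1 with the replicate block.

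**Figure D2:**
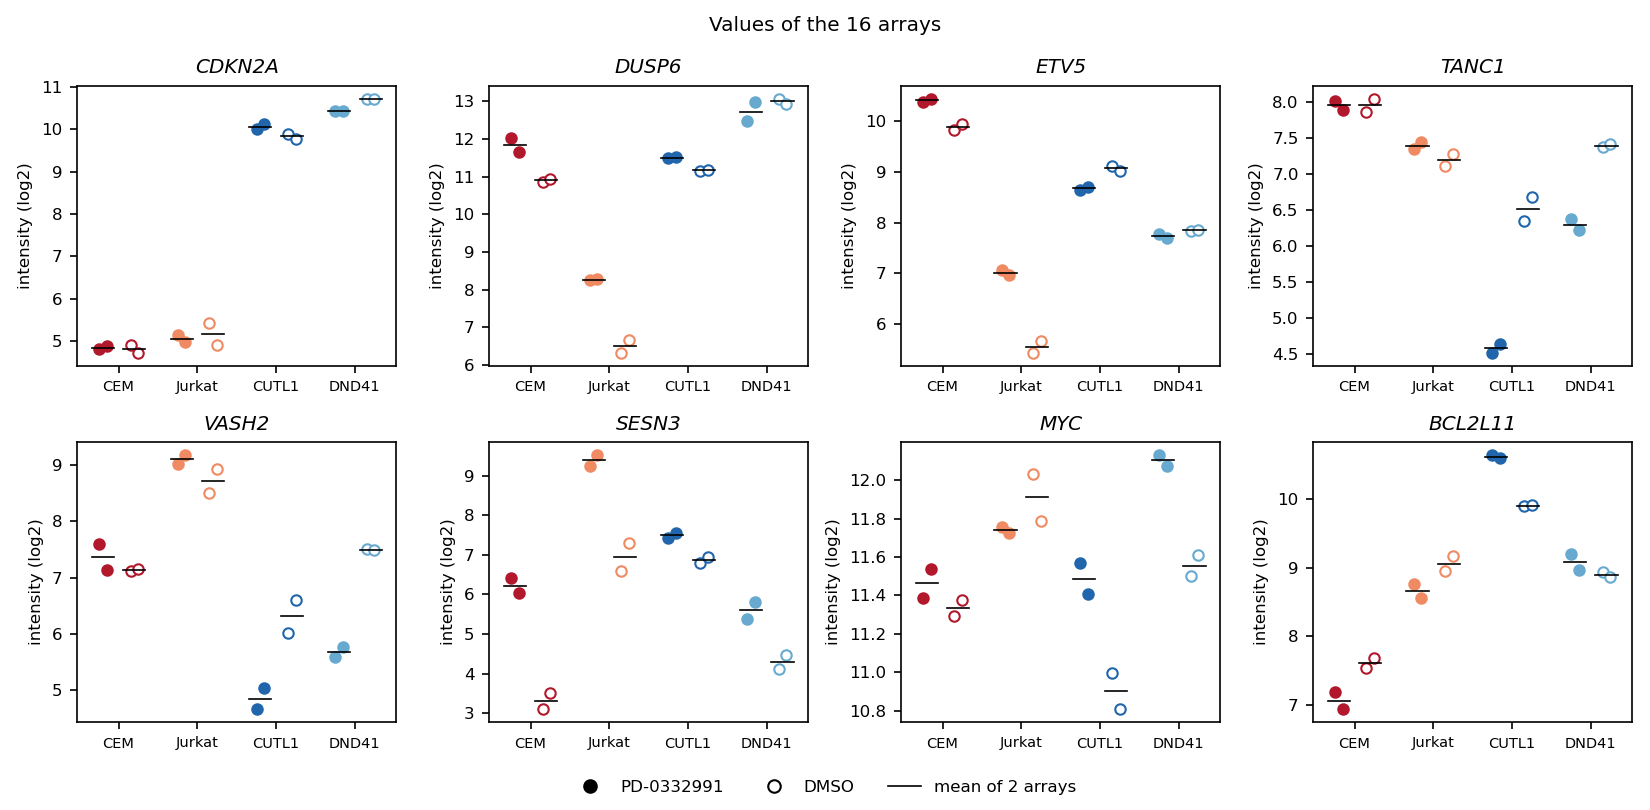
Log2 intensity of 8 genes on the 16 arrays, by line, with PD-0332991 as filled and DMSO as open circles and a bar at the mean of 2 arrays. CDKN2A lies between 4.71 and 5.42 in CEM and Jurkat and at 9.79 or above in CUTL1 and DND41, while the treated arrays of TANC1 and VASH2 lie below the DMSO arrays in CUTL1 and DND41 and not in CEM and Jurkat.

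In the probe sets used, TANC1 and VASH2 were lower with PD-0332991 in CUTL1 and DND41 and not in CEM and Jurkat. TANC1, a scaffold protein gene, read 8.01 and 7.89 in CEM with PD-0332991, against 7.85 and 8.04 with DMSO, and 7.34 and 7.44 in Jurkat with PD-0332991, against 7.10 and 7.27 with DMSO. CUTL1 gave 4.51 and 4.64 with PD-0332991, against 6.34 and 6.67 with DMSO, and in DND41 6.37 and 6.22, against 7.37 and 7.41. The treatments overlapped in CEM and stood well apart in CUTL1 and DND41, with a difference between pairs of 1.62 (SE 0.12). This holds for the probe set used: the other bright probe set of TANC1 gave -0.35. VASH2, which encodes a tubulin carboxypeptidase, had the largest difference of all members, 1.94 (SE 0.21), or 3.85-fold. It read 4.67 and 5.04 in CUTL1 with PD-0332991, against 6.02 and 6.60 with DMSO, and 5.60 and 5.77 in DND41 with PD-0332991, against 7.50 and 7.49 with DMSO. In CEM the arrays overlapped (7.59 and 7.13, against 7.11 and 7.14), and in Jurkat they were slightly higher with the drug (9.01 and 9.17, against 8.49 and 8.92). The difference was positive in both bright probe sets of VASH2 (1.94 and 0.52). In the other one, however, the change was negative in all 4 lines. It was -0.10 in CEM and -0.71 in Jurkat, against -0.87 in CUTL1 and -0.98 in DND41.

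A second pattern among the higher members was an increase in all lines that was larger in CEM and Jurkat. SESN3, an inhibitor of mTORC1 and a FOXO target, read 6.41 and 6.03 in CEM with PD-0332991, against 3.10 and 3.51 with DMSO, and 9.25 and 9.53 in Jurkat with PD-0332991, against 6.60 and 7.31 with DMSO. In CUTL1 it read 7.44 and 7.56 with PD-0332991, against 6.80 and 6.94 with DMSO, and in DND41 5.38 and 5.82, against 4.11 and 4.48. Treated arrays lay above DMSO arrays in all 4 lines, by 2.92 and 2.43 on average in CEM and Jurkat, against 0.63 and 1.31 in CUTL1 and DND41, and the CEM and DND41 arrays with DMSO were dim. SESN3 rose on average by 1.82 (SE 0.12, limma adjusted p = 2.17e-07). Of 29 genes of PI3K, mTORC1 brakes and FOXO, 4 were called (13.8%, beside 9.24% of all genes), all higher members: SESN3, DDIT4, another mTORC1 inhibitor (named after its values were seen, difference 0.44), CCNG2, a FOXO-induced cyclin of quiescent cells (0.72), and the T-cell quiescence factor KLF2 (0.70, called in 4 of 16 fits without 1 array, and at -0.10 in its other probe set).

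Thymocyte and T-cell surface genes were called on the higher side alone. Of 42 genes of the T cell receptor and thymocyte list 10 were called (23.8%, beside 9.24% of all genes), all higher. Of these 9 are members, although the median of the list was 0.07. CD69, an activation antigen of selected thymocytes, had changes of 1.05 in CEM and 1.61 in Jurkat, against 0.57 in CUTL1 and -0.64 in DND41. CCR9, a thymic homing receptor, read 10.60 and 10.58 in CEM with PD-0332991, against 9.22 and 9.04 with DMSO, and 6.53 and 6.32 in Jurkat with PD-0332991, against 5.11 and 5.62 with DMSO. In CUTL1 CCR9 read 11.40 and 11.43, against 10.89 and 11.03, and in DND41 6.71 and 7.22, against 6.86 and 6.82 with overlapping arrays. It rose on average by 0.78 (limma adjusted p = 1.69e-05), and its difference was 0.97 (SE 0.17). CCR7, a lymph node homing receptor, had changes of 0.14 and 0.43 in CEM and Jurkat, against -0.80 and -0.98 in CUTL1 and DND41, a difference of 1.18 (SE 0.16), and fell on average by 0.30 (limma average effect -0.30, adjusted p = 0.00689). CD8A, CD8B, CD28, LCP2 and the phosphatase gene PTPRC are further members, and UBASH3B was called without the order, all named after their values were seen. Without CEM 3 of the list were called higher, without Jurkat 5, without CUTL1 10 and without DND41 4, the last with 1 lower, and the count was 5 with the replicate block and 0 with the 18S covariate.

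Interferon-stimulated genes had 7 of 34 called (20.6%, beside 9.24% of all genes), all higher. That count was 2 without CEM, 4 without Jurkat, 2 without CUTL1 and 5 without DND41, 4 with quantile normalization and 0 with the 18S covariate. RSAD2, the antiviral radical enzyme viperin, had changes of 1.08 in CEM and 0.29 in Jurkat, against -0.92 in CUTL1 and 0.29 in DND41, and so kept the order by a small margin. Its other bright probe set did not keep the order, with 0.085 in Jurkat and 0.308 in DND41. TRIM22 (difference 0.88, called in 7 of 16 fits without 1 array) and IFIT1 (0.77, 5 of 16) had positive changes in all lines and rose on average by 0.90 and 0.59 (limma adjusted p = 2.44e-05 and 0.000462). The list's median change was 0.44 in CEM and in Jurkat, against 0.29 in CUTL1 and 0.14 in DND41. Among p53 targets 3 of 22 were called higher and 1 lower (18.2% in all, beside 9.24% of all genes). FAS, the death receptor gene (difference 0.53, 6 of 16 fits), and PMAIP1 below are the members. TP53INP1, named after its values were seen, had a difference of 1.26 without the order, since its changes of 3.36 in CEM and 2.10 in Jurkat enclosed that of 2.20 in DND41, with 0.75 in CUTL1.

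**Figure D3:**
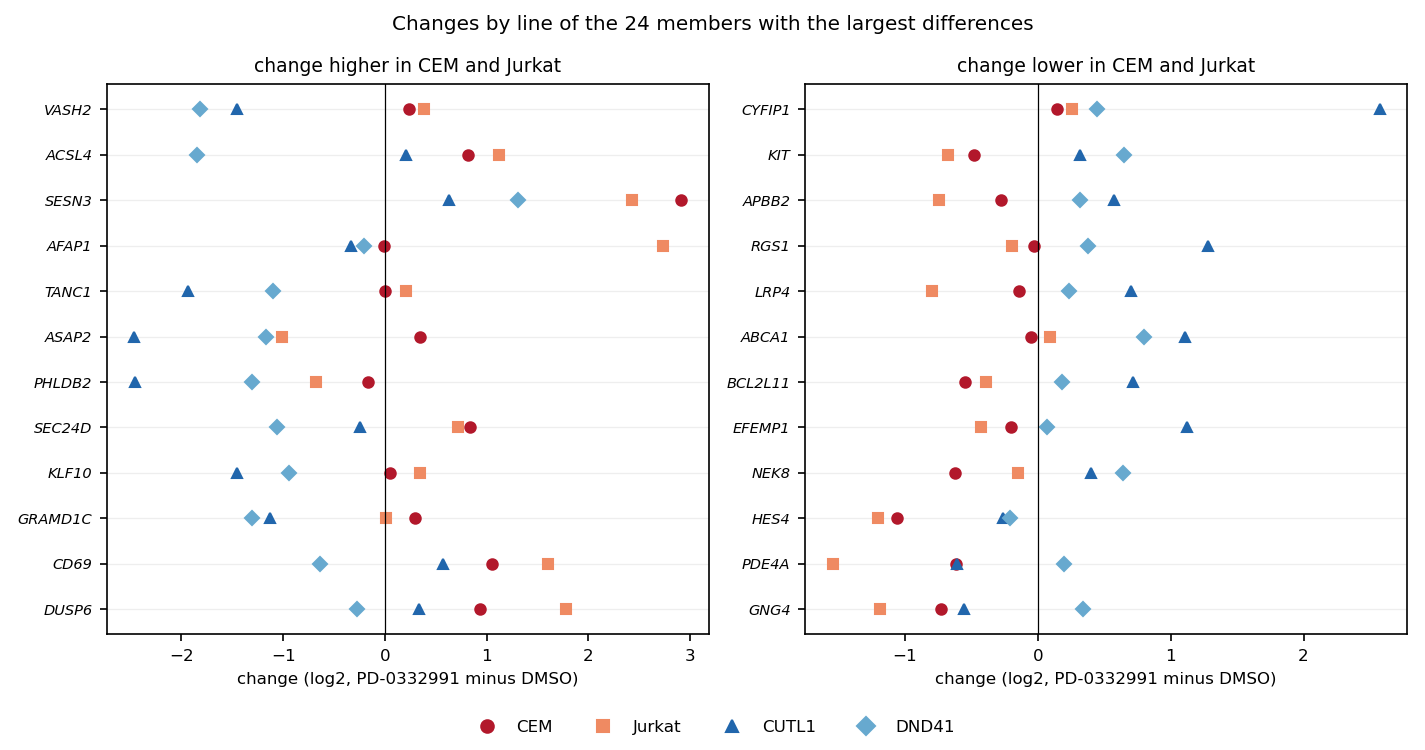
Log2 change (PD-0332991 minus DMSO) in each line for the 12 members with the largest positive (left) and the 12 with the largest negative difference between pairs (right), each point the mean of 2 arrays minus the mean of 2 arrays. SESN3 is to the right of 0 in all 4 lines and CYFIP1 stands out through CUTL1 alone (2.57), while AFAP1 stands out through Jurkat alone (2.74).

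The rest of the 12 largest higher members differed in which lines carried them. ASAP2, a GTPase-activating protein of ARF, had changes of 0.34 in CEM and -1.01 in Jurkat, against -2.46 in CUTL1 and -1.16 in DND41, and PHLDB2, a microtubule anchoring protein, -0.16 and -0.67 against -2.45 and -1.31. Both fell on average, by 1.07 and 1.15 (limma average effects -1.07 and -1.15, adjusted p = 1.17e-05 and 1.44e-06). GRAMD1C, a sterol transfer protein, had 0.29 and 0.01 against -1.13 and -1.31. Other calls were lost in many fits without 1 array. ACSL4, a fatty acid activating enzyme, read 5.79 and 7.24 in DND41 with PD-0332991, against 8.49 and 8.23 with DMSO, and was called in 3 of 16 fits without 1 array. SEC24D, a coat protein of secretory vesicles, was called in 8 of 16, with a difference of 1.14 to 1.74 in them all, and had changes of 0.84 and 0.72 in CEM and Jurkat, against -0.25 and -1.06. AFAP1, an actin-associated protein, read 6.11 and 6.69 in Jurkat with PD-0332991, against 2.83 and 4.50 with DMSO, was dim in the other 7 groups and was called in 6 of 16 fits. The opposed higher members with the largest smallest change were FKBP1B, a calcium channel binding protein (0.61 and 0.46 in CEM and Jurkat, against -0.57 and -0.64), the calcium binding protein gene GCA (0.73 and 0.45, against -0.39 and -0.99), LETM2 (0.27 and 0.49, against -0.52 and -0.68), TDRKH (0.52 and 0.38, against -0.28 and -0.38) and RAB33B (0.30 and 0.31, against -0.32 and -0.78, called in 3 of 16 fits).

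The 12 largest lower members included the pro-apoptotic gene BCL2L11 and the NOTCH target HES4. BCL2L11, which encodes the cell death activator BIM, read 7.19 and 6.94 in CEM with PD-0332991, against 7.53 and 7.68 with DMSO, and 8.77 and 8.56 in Jurkat with PD-0332991, against 8.95 and 9.17 with DMSO. The CUTL1 arrays read 10.64 and 10.60 with PD-0332991, against 9.90 and 9.91 with DMSO, and in DND41 9.20 and 8.97, against 8.94 and 8.87. In this probe set no treatment pair overlapped. The direction was down in CEM and Jurkat and up in CUTL1 and DND41, a difference of -0.92 (SE 0.12). The difference had the same sign in all 7 bright probe sets, but the DND41 change did not. It was -0.16, -0.08, -0.45 and -0.21 in some of the others and 0.23 and 0.42 in the rest. Where it was -0.16 and -0.45 it lay below the CEM change (0.03 and -0.32), so the order was not kept there. The average effect was -0.01 (limma adjusted p = 0.912). The level over both treatments was lower in the mean of CEM and Jurkat (limma difference -1.53, adjusted p = 5.18e-10). This did not hold line by line, since with DMSO BCL2L11 averaged 9.06 in Jurkat and 8.90 in DND41. PMAIP1, the BH3-only protein NOXA, had changes of -0.52 in CEM and -1.09 in Jurkat, against 0.02 in CUTL1 and -0.24 in DND41, with a difference of -0.69 (SE 0.09). Its other bright probe set gave -0.36 and -0.69, against 0.20 and -0.64, a difference of -0.30 without the order. BCL2L11 and PMAIP1 were the only ones called of 17 BCL2 family genes tested (11.8%, beside 9.24% of all genes).

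HES4, a NOTCH-induced repressor, read 5.68 and 5.83 in CEM with PD-0332991, against 6.87 and 6.76 with DMSO, and 8.15 and 8.23 in Jurkat with PD-0332991, against 9.44 and 9.35 with DMSO. The CUTL1 arrays read 10.53 and 10.54 with PD-0332991, against 10.82 and 10.77 with DMSO, and in DND41 8.82 and 8.89, against 9.0 and 9.13. The treated arrays lay below the DMSO arrays in all 4 lines, and by more in CEM and Jurkat, for a difference of -0.90 (SE 0.08). HES4 fell on average by 0.68 (limma average effect -0.68, adjusted p = 6.36e-08). Its level was lower in the mean of CEM and Jurkat (limma difference -2.27, adjusted p = 8.34e-13). With DMSO, however, it averaged 9.39 in Jurkat, above the 9.06 of DND41. NOTCH1 itself differed by -0.48 (called in 4 of 16 fits without 1 array), with a change of -0.60 in Jurkat and of -0.08, 0.06 and 0.22 in CEM, CUTL1 and DND41. The other bright probe set of NOTCH1 gave a difference of -0.069 without the order, with a change of 0.16 in Jurkat. SHQ1, an assembly factor of small nucleolar particles, differed by -0.52 (SE 0.07), with -0.38 and -0.54 in CEM and Jurkat against 0.06 and 0.05. Of the 23 NOTCH genes tested these 3 were called lower and CD300A, named after its values were seen, was called higher (17.4% in all, beside 9.24% of all genes).

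MYC was higher with the drug in CUTL1 and DND41. It read 11.57 and 11.41 in CUTL1 with PD-0332991, against 10.99 and 10.81 with DMSO, and 12.13 and 12.08 in DND41 with PD-0332991, against 11.50 and 11.61 with DMSO. In CEM it read 11.39 and 11.54 with PD-0332991, against 11.29 and 11.37 with DMSO, and in Jurkat 11.75 and 11.73, against 12.03 and 11.79. The treatments stood apart by more in CUTL1 and DND41 than in CEM, and MYC was lower in Jurkat, for a difference of -0.59 (SE 0.10) and an average rise of 0.27 (limma adjusted p = 0.000789). MXI1, a MAX partner that opposes MYC, had the same order (0.23 and 0.22 in CEM and Jurkat, against 0.81 and 0.53), with a difference of -0.45 (SE 0.07). They were the only ones called of 10 genes of the MYC and MAX network (20%, beside 9.24% of all genes). Of 36 ribosome biogenesis and MYC target genes 5 were called lower and 0 higher (13.9% in all, beside 9.24% of all genes). These were the polyamine enzyme gene SRM (-0.48), the pyrimidine synthesis gene CAD (-0.44, 6 of 16 fits), the ribosome assembly gene MRTO4 (-0.43, 5 of 16, with -0.08 in its other bright probe set) and, named after their values were seen, the polyamine enzyme gene ODC1 and RRP12. ODC1 had changes of -0.62 and -0.39 in CEM and Jurkat against -0.16 and -0.15, and SRM of -0.56 and -0.31 against 0.01 and 0.07. This count was 0 lower without CEM, 4 without Jurkat and 3 without DND41, and 2 higher and 2 lower without CUTL1.

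CYFIP1, a subunit of the WAVE actin regulator, had the largest negative difference, -1.31 (SE 0.15), through CUTL1, where it read 8.10 and 8.16 with PD-0332991, against 5.24 and 5.88 with DMSO. Its changes in the other lines were 0.14 in CEM, 0.26 in Jurkat and 0.45 in DND41, and without CUTL1 it was not called. RGS1, a brake on G protein signals in lymphocytes, differed by -0.94 (SE 0.15), with 7.39 and 7.39 in CUTL1 with PD-0332991, against 6.0 and 6.23 with DMSO, and 10.30 and 10.30 in DND41, against 9.85 and 9.99. It was dim in Jurkat, and its treatments overlapped in CEM. The agrin receptor gene LRP4 (-0.94), the adaptor gene APBB2 (-0.95, with the same sign in 5 of 6 bright probe sets), the cholesterol exporter gene ABCA1 (-0.94, dim in 6 groups, 11 of 16 fits) and EFEMP1, a matrix protein gene (-0.91, with 0.16 in its other bright probe set), followed. PDE4A, a cyclic AMP phosphodiesterase, had changes of -0.62 in CEM and -1.54 in Jurkat, against -0.61 in CUTL1 and 0.20 in DND41, and so kept the order by a margin of 0.0074. The G protein subunit gene GNG4 had changes of -0.73 and -1.19, against -0.55 and 0.34, and was dim in 5 groups. KIT was dim in 7 groups and CBR1 in 6, so that their changes are not measured reliably. CBR1 and NEK8 were each called in 7 of 16 fits. TSPAN12 (-0.62, 5 of 16) and WNT6 (-0.52, 4 of 16) were the other opposed lower members named by rule.

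Genes of the integrated stress response and amino acid supply made up the list with the highest share of calls. Of 30 tested, 13 were called lower and 1 higher (46.7% in all, beside 9.24% of all genes), and 10 and 1 are members. Their median change was -0.20 in CEM and -0.48 in Jurkat, against -0.03 in CUTL1 and 0.02 in DND41. ATF4, the factor of this response (named after its values were seen), read 12.49 and 12.45 in Jurkat with PD-0332991, against 12.99 and 12.91 with DMSO, and 12.64 and 12.63 in CEM with PD-0332991, against 12.73 and 12.76 with DMSO. In CUTL1 and DND41 it read 12.48 and 12.43, and 12.91 and 12.98 with PD-0332991, against 12.60 and 12.40, and 12.89 and 12.85 with DMSO. The treated arrays lay below the DMSO arrays in Jurkat and, by less, in CEM, overlapped them in CUTL1 and lay slightly above them in DND41. ASNS, asparagine synthetase, had changes of -0.42 in CEM and -0.70 in Jurkat, against 0.40 in CUTL1 and -0.21 in DND41, where it was dim, and CEBPB, a partner of ATF4, of -0.40 and -0.68 against -0.01 and -0.05 (difference -0.51, SE 0.07). STC2 (-0.64, 9 of 16 fits) was above the dim level in Jurkat only. Falls on average were called for ASNS at 0.23 (limma average effect -0.23, adjusted p = 0.0138) and CEBPB at 0.29 (limma average effect -0.29, adjusted p = 6.13e-05), and the level of ASNS was higher by 4.12 in CEM and Jurkat (limma adjusted p = 5.07e-13).

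The count for this list rested on Jurkat. Without Jurkat 0 of the 30 genes were called lower and 3 higher, while without CEM 10, without CUTL1 13 and without DND41 4 were called lower. The median difference without Jurkat was -0.12, in place of -0.28, and 0 were called with the 18S covariate. Members besides ASNS, CEBPB, STC2 and ATF4 were the synthetase genes AARS1, CARS1 and GARS1, the factors ATF5 and CEBPG and the amino acid carrier SLC7A5, while SLC7A11, SLC7A1 and CHAC1 were called without the order. PSAT1, of serine synthesis, was the 1 higher member (0.42). Apart from ASNS, CEBPB and STC2, which were named by rule, the genes of this list were named after their values were seen.

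**Figure D4:**
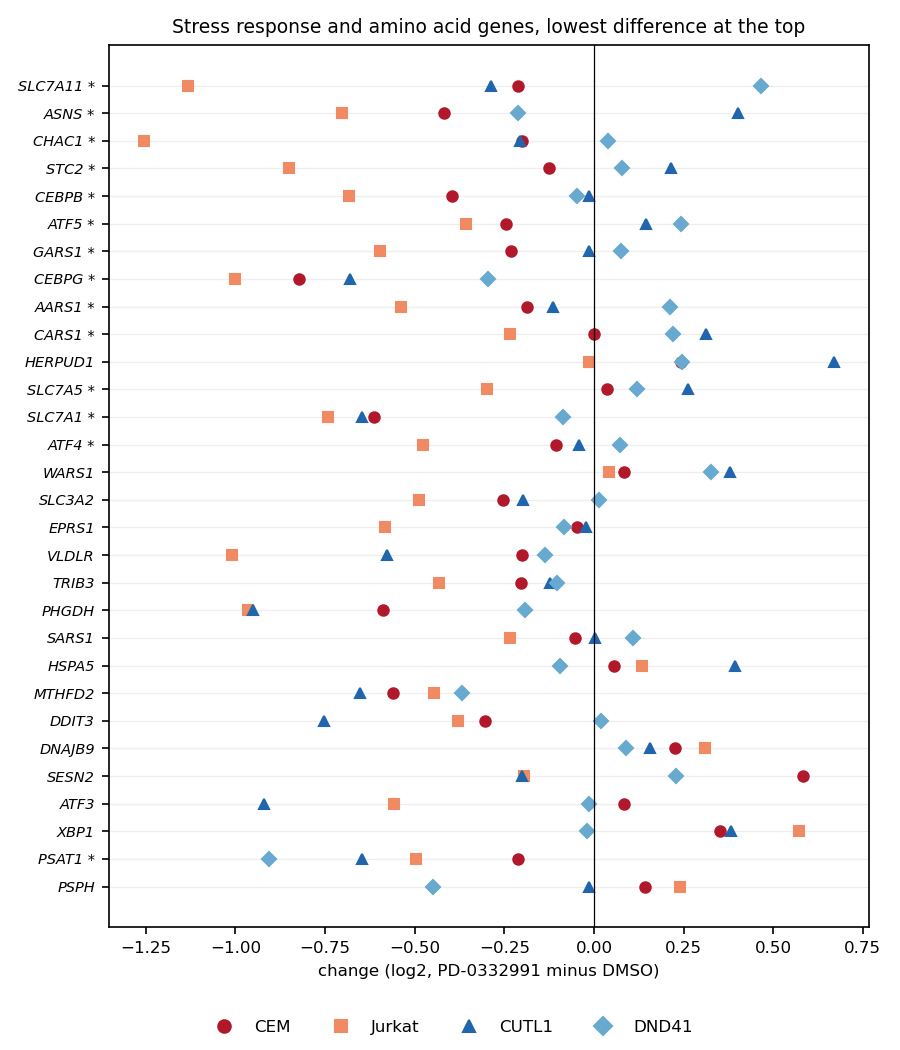
Log2 change (PD-0332991 minus DMSO) in each line for the 30 tested genes of the integrated stress response and amino acid supply, with the lowest difference between pairs at the top and an asterisk for an adjusted p under 0.05. Jurkat is the leftmost point for SLC7A11, ASNS, CHAC1, STC2, CEBPB and most of the other genes marked as lower.

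ATF4 binds, with C/EBP factors, to composite elements in promoters of this response, so the promoters of the lower members of the list were searched for TGATGNAA on both strands, a set of letters chosen after these genes had been seen. RefSeq promoter windows (GRCh38.p14, 250 bases before to 50 after a start) were at hand for 661 of 806 higher and 238 of 290 lower members, and for 28 of the 30 genes of the list. The letters were found in 5 of the 10 lower members of the list (50%), in 10 of the 28 (35.7%), and in 2.82% of the genes tested and 4.46% of all 27305 genes with a window. The 5 are shown, since they are the members with the letters in the group with the most calls: ASNS (chr7:97872359-97872658, minus strand), CEBPG (chr19:33373863-33374162, plus strand), CARS1 (chr11:3057374-3057673, minus strand), GARS1 (chr7:30594628-30594927, plus strand) and AARS1 (chr16:70289457-70289756, minus strand). Each is written 5' to 3' on the gene's strand, with the letters or their reverse complement in capitals.
ASNS: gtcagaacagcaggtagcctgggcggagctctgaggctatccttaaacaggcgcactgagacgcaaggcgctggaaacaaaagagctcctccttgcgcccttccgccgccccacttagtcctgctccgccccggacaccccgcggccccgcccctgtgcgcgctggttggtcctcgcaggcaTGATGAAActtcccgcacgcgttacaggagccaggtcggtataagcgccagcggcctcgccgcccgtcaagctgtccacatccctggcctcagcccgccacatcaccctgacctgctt
CEBPG: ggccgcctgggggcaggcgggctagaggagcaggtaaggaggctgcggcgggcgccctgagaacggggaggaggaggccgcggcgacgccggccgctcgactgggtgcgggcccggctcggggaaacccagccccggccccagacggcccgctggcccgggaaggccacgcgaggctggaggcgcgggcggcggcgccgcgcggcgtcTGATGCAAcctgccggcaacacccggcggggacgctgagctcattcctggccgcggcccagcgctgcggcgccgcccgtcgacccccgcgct
CARS1: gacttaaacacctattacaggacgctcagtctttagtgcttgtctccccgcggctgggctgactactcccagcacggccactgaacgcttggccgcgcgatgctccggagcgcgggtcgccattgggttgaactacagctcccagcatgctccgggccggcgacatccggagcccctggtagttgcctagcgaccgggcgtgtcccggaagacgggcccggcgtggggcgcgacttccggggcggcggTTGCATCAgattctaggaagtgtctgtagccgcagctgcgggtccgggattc
GARS1: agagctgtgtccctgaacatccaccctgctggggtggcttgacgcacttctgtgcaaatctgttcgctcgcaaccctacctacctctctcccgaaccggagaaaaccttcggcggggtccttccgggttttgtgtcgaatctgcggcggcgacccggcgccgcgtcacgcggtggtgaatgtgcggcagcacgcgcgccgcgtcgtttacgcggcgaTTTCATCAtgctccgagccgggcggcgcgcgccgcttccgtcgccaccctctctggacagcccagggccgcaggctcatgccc
AARS1: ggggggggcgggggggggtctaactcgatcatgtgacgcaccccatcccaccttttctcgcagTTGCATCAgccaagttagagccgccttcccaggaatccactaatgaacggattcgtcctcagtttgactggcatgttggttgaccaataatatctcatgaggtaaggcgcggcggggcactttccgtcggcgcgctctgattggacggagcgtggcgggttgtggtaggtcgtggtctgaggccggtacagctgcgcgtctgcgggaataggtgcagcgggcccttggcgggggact
The match began at -68 from the start site in ASNS, -42 in CEBPG, -2 in CARS1, -33 in GARS1 and -187 in AARS1. Their differences were -0.66, -0.42, -0.38, -0.44 and -0.41 in the same order, with Jurkat changes of -0.70, -1.0, -0.23, -0.60 and -0.54. Over the members as a whole TGATGNAA was in 5.46% of lower and 2.12% of higher members. The E-box CACGTG, which MYC and MAX bind, was in 21.4% of lower members (51 of 238), 9.53% of higher ones (63 of 661) and 12.5% of genes tested. The ETS letters CCGGAAGT were in 4.2% of lower and 9.38% of higher members, beside 9.23% of genes tested. The AP-1 letters TGACTCA or TGAGTCA were in 8.82% and 4.99%, beside 4.81%, the CRE letters TGACGTCA in 3.36% and 3.18%, beside 3.62%, and the E2F letters TTTGGCGC, TTTCGCGC or TTTCCCGC in 5.88% and 4.84%, beside 5.26%. Both strands were searched and a promoter could hold several motifs. A match describes the letters of the window and shows no binding.

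DNA replication genes, which E2F factors drive, gave 1 member. The median change of 47 replication origin and fork genes was -1.42 in CEM and -1.93 in Jurkat, against -2.05 in CUTL1 and -1.32 in DND41, so that each pair held a stronger and a weaker line. Only PRIM2, a primase subunit, was a member (0.72, 5 of 16 fits), and MCM7, named after its values were seen, was called without the order. The calls made up 4.26% of the list, beside 9.24% of all genes. Leaving out a line turned the calls: 6 were lower without CEM, 11 higher without Jurkat, 18 lower without CUTL1 and 20 higher without DND41. CCNE2, cyclin E2, read 7.96 and 7.56 in CEM with PD-0332991, against 10.60 and 10.73 with DMSO, and 5.89 and 5.19 in Jurkat with PD-0332991, against 10.20 and 10.54 with DMSO. CUTL1 gave 5.16 and 5.37, against 11.21 and 11.24, and in DND41 7.08 and 7.20, against 10.74 and 10.86. Its decreases of 2.91 in CEM, 4.83 in Jurkat, 5.96 in CUTL1 and 3.66 in DND41 cross between the pairs, so that it was called (difference 0.94) without the order. CCNE1, cyclin E1, is a member, with changes of -1.60 and -1.54 in CEM and Jurkat against -2.74 and -1.72.

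Of 31 RB network genes 6 were called higher and 1 lower (22.6%, beside 9.24% of all genes), and 4 are members, all higher. There were 2 higher and 2 lower without CEM, 8 and 0 without Jurkat, 3 and 3 without CUTL1, 8 and 0 without DND41, 3 and 0 with the replicate block and 0 in each direction with the 18S covariate. CDKN2D, the INK4 inhibitor p19, read 9.63 and 9.71 in CEM with PD-0332991, against 9.38 and 9.42 with DMSO, and 9.10 and 9.07 in Jurkat with PD-0332991, against 8.96 and 8.87 with DMSO. Values in CUTL1 were 9.11 and 9.10, against 9.41 and 9.25, and in DND41 7.41 and 7.28, against 7.85 and 7.84. The treatments did not overlap in any line, with opposite directions in the pairs and a difference of 0.58 (SE 0.07), and the average effect was -0.07 (limma adjusted p = 0.137). RB1 (0.54, 6 of 16 fits) and CDKN1B, the inhibitor p27 (0.50, 3 of 16), were the other opposed members, with changes of 0.07 and 0.27 against -0.11 and -0.62 for RB1 and of 0.19 and 0.20 against -0.22 and -0.39 for CDKN1B. The drug targets gave no member. The difference was 0.03 for CDK4, which fell on average by 0.65 (limma average effect -0.65, adjusted p = 5.24e-08), -0.07 for CDK6, 0.08 for CCND3, 0.21 for CCND2 and 0.18 for CCND1, the last 2 dim in 5 and 6 groups. For E2F1 it was 0.43 (adjusted p = 0.0614) and for CDKN1A 0.08. Of 55 genes of G2 and mitosis 4 were called higher and 4 lower (14.5% in all, beside 9.24% of all genes). ECT2 (0.63) and MAD2L1 (0.53) are members, each called in 3 of 16 fits. Here too the calls turned with the line left out: 27 were lower and 0 higher without CEM, 29 higher and 0 lower without Jurkat, 1 higher and 20 lower without CUTL1, and 2 higher and 0 lower without DND41. A difference of -0.61 was found for SLC29A1, a nucleoside transporter (9 of 16 fits), among 21 genes of nucleotide synthesis. Of these 3 were called, all lower (14.3%, beside 9.24% of all genes).

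Other lists held few members, and their shares stand beside 9.24% of all genes called. Of 17 replication-dependent histone genes 5 were called lower (29.4%) and H2BC9 (-0.59) is the member, with a positive change in DND41 alone (0.31), and 1 was called lower without Jurkat and 0 without DND41. HHEX (0.58, dim in 2 groups) and PHF6 (0.73, 12 of 16 fits), both transcriptional regulators of T-ALL, were the 2 called of 19 T-ALL factors (10.5%). In their other bright probe sets the differences were 0.02 for HHEX and 0.231 for PHF6, both without the order. Among 20 sterol genes (10% called) INSIG1, which holds back cholesterol synthesis, was an opposed higher member (0.67) and LSS an opposed lower one (-0.30, 6 of 16 fits). The other bright probe sets of LSS gave 0.02 and 0.145. For cytokine signalling 1 of 28 genes was called (3.57%), the receptor gene IFNGR2 (-0.33, 6 of 16). Among 16 NF-kB genes only CD83, named after its values were seen, was called (6.25%), without the order. None of 22 glycolysis genes was called.

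The average effect and the level over both treatments are orthogonal to the difference that chose the members, although they share its residual variance, so they can be tested for them. Of the 806 higher members 309 (38.3%) rose and 225 (27.9%) fell on average over the 4 lines, beside 26.7% and 20% of the genes tested (46.6% in either direction). Of the 290 lower members 55 (19%) rose and 89 (30.7%) fell. As to the level, 366 higher members (45.4%) were higher in CEM and Jurkat and 210 (26.1%) lower, beside 31.6% and 25.5% of genes tested (57.1% in either direction), and of the lower members 84 (29%) were higher and 97 (33.4%) lower. These counts describe the members and were not set against other genes by a test. Of members with more than 1 bright probe set, all had the same sign in 297 of 429 higher and 92 of 144 lower ones.

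**Figure D5:**
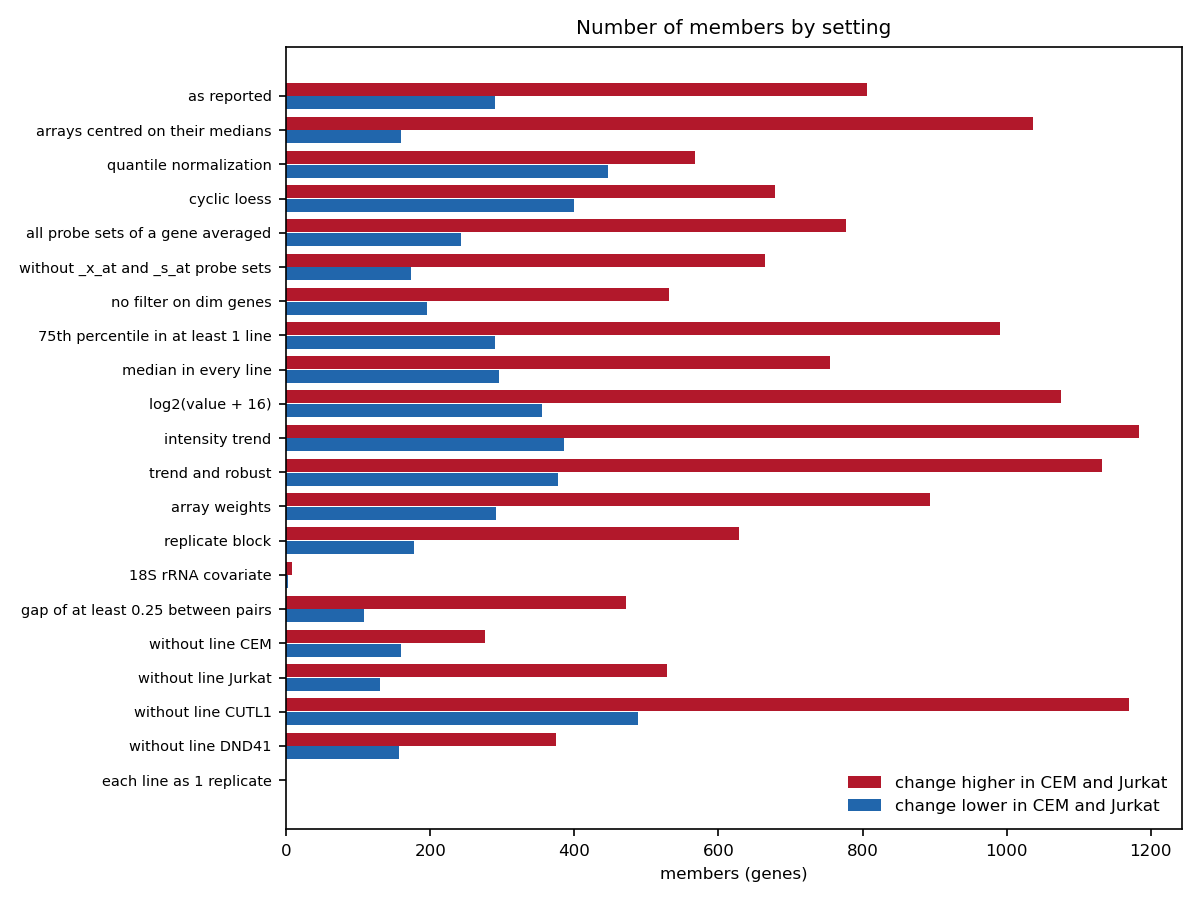
Number of members with a higher (red) and a lower (blue) change in CEM and Jurkat under each setting, with bars from 0. The counts are 806 and 290 as reported, 8 and 2 with the 18S covariate, and 0 with each line as 1 replicate.

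The counts moved with the line left out. Without CEM there were 276 higher and 160 lower members, without Jurkat 529 and 130, without CUTL1 1170 and 489, and without DND41 375 and 156. Of the 1096 members 280, 408, 731 and 269 were members again in these fits.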

How the data were processed

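RNA of 16 samples was read on Affymetrix U133 Plus 2.0 arrays. The deposited intensity values of 54675 probe sets had been summarised with RMA per the submitters' processing notes, version not given in the sources used here. They ran from 4.42 to 26097, on a linear scale where log2 values had been planned for, so log2 was taken first and no further scaling was applied (array medians 28.5 to 31.2). Of the probe sets 41097 carried 1 gene symbol, 1801 several and 11777 none, and each of 19775 genes was represented by its brightest probe set of 1 symbol. Genes entered the test if their 4-array mean in some line was no lower than 29.5, the median over all values, which left 13483.

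limma 3.58.1 (R 4.3.3) fitted 8 group means, with contrasts for the difference between pairs, the average effect and the level, and Benjamini-Hochberg adjustment over all 13483 genes, and it was tested on simulated data. Python 3.11.15, pandas 2.3.3 and matplotlib 3.10.9 served for the rest. The number of arrays limits the precision. The members, the gene lists and the tests were chosen with earlier results of these data known. Named by rule were the 12 largest members in each direction, 5 opposed members in each direction with the largest smallest change, up to 3 members per list, a set of cell cycle and reference genes, and 3 genes on each side of the threshold, passing over uncharacterised loci. Same-numbered arrays within a line deviated together with r of 0.076 in CEM, 0.105 in Jurkat, 0.195 in CUTL1 and -0.108 in DND41, so the replicate numbers were not taken as pairs. Alternatives were other scalings, probe set rules, filters, variance models, covariates, and fits without an array or a line.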

Additional observations from a re-analysis of the deposited data

Results flagged for a closer look

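The response differed between the pairs of lines in 1246 genes by limma's test of the difference itself, the result the members were taken from. The 18S ribosomal RNA probe sets, outside the genes tested, also differed in their response, by 0.709 on the log2 scale, with changes of 0.245 in CEM and 0.045 in Jurkat, against -0.488 in CUTL1 and -0.64 in DND41. The part of the 18S change in the differences of the members was not tested beyond the fit with 18S as a covariate.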

How the results depend on the processing

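As reported, 901 genes were called higher and 345 lower, and 806 and 290 are members. With arrays centred on their medians 190 genes were called lower, with 159 lower members, and with quantile normalization there were 447 lower members. Without probe sets ending _x_at or _s_at 198 genes were lower, with 174 members. With no filter on dim genes 581 were higher and 220 lower, with 532 higher members. With the 18S covariate 8 were higher and 2 lower, all 10 in the required order and 8 of them among the reported members. A gap of at least 0.25 left 471 higher and 108 lower members. Without CEM 278 genes were higher and 168 lower (276 and 160 members), without Jurkat 545 and 133 (529 and 130), without DND41 381 and 159 (375 and 156), and without CUTL1 there were 489 lower members. With each line as 1 replicate limma called 0 in each direction (1359 at an unadjusted p under 0.05). With the replicate number as a block (replicate block) 207 genes were lower, with 178 lower members, and 680 of 807 members were shared with those reported; the numbers do not pair the arrays. Leaving out 1 array gave 298 to 1529 genes higher, 114 to 603 lower, and 263 to 1355 and 99 to 537 members. The members numbered 364 to 670 in 12 of the 16 such fits, and 1330 without the second CEM array with PD-0332991, 1810 without the second DND41 array with PD-0332991, 1892 without the second Jurkat array with DMSO and 1049 without the first CUTL1 array with DMSO. The cause of these shifts was not tested. Counts of average effects and levels among the members stayed within 1.5 times under the scalings and the block. Alternatives for gene lists and the TGATGNAA search were chosen after seeing the data.

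Of 72 members named by rule 69 kept their sign in every alternative. The other 3 turned without _x_at or _s_at probe sets, where another probe set stands in (TANC1 -0.35, MAD2L1 -0.11, KLF2 -0.10). Single lines ended calls: MYC, CEBPB and PMAIP1 without Jurkat, ASNS without Jurkat or CUTL1, CD69 without DND41, CYFIP1, RGS1 and CCNG2 without CUTL1, CCR9 without CEM, RSAD2 without CEM or CUTL1, SRM without CEM or DND41, and CCNE1 without CEM, Jurkat or CUTL1. Differences that were not called also turned sign. CDKN2A was 0.035 with median centring, 0.052 without Jurkat and 0.24 without CUTL1, and -0.15 to 0.11 without 1 array. MTAP was 0.034 with median centring, 0.022 with cyclic loess, 0.24 with probe sets averaged, 0.036 with 16 added before the log, 0.195 with the 18S covariate, 0.29 without CEM and 0.0083 without CUTL1, and -0.21 to 0.16 without 1 array. CDK4 was -0.0037 with quantile normalization, -0.11 with the 18S covariate and -0.073 without CUTL1, and -0.0039 to 0.061 without 1 array. CDKN1A was -0.0096, -0.076 and, without DND41, -0.014, and -0.066 to 0.22 without 1 array. CCND3 was -0.12 with probe sets averaged, CCND1 -0.165 without _x_at or _s_at probe sets, and CDK6 0.12 with the 18S covariate. CCND2 was -0.50 without Jurkat and -0.27 without CUTL1. CCNE2 was -0.021 without CEM and -0.21 without CUTL1.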
